A study of Mus musculus with 8 samples.

Results

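Bmi1 and Commd3 are neighbouring genes on mouse chromosome 2. They were examined with the 50 kb on either side, chr2:18622435-18736629 of the build mm10, in 6 deposited peak lists from chromatin immunoprecipitation followed by sequencing (ChIP-seq). The pair makes up 2 of the 21883 protein-coding genes used, and its window of 114195 bp held 31 of the 866451 peaks deposited. The locus was chosen by the Ezh2 fold enrichment of its peak at the start of Bmi1, the highest in the lists, so every Ezh2, H3K27me3 and Runx1 value of the window is given as a description, with no test.

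The libraries came from EML_C1, a mouse haematopoietic progenitor line from the strain C57BL/6 per the labels, grown in IMDM with 20% FCS and 200 ng/ml mSCF (stem cell factor). EML cells are known as a line held at a progenitor stage by a dominant-negative retinoic acid receptor, and all libraries share that background. The groups with an antibody were Ezh2, H3K27me3 and Runx1, with 2 replicates each, and the controls were 2 input libraries, of which the Ezh2 and Runx1 libraries shared 1. Chromatin of the Ezh2 and Runx1 libraries was fixed for 60 min with 2 mM DSG and then for 60 min with 1% formaldehyde, and that of the H3K27me3 libraries for 10 min with 1% formaldehyde alone. No library had a genotype or treatment that differed from the others. Whether the replicates came from separate cultures is not said in the labels, and their spread may be technical. Peak lists hold no expression, so markers of the cell type could not be checked, and neither can the level of Bmi1 or Commd3 RNA.

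Polycomb proteins keep developmental genes silent through a pair of complexes. Ezh2 is the catalytic subunit of Polycomb repressive complex 2 (PRC2), which trimethylates lysine 27 of histone H3 (H3K27me3), and PRC1 can bind that mark through its Cbx subunits and ubiquitinates histone H2A. Bmi1 encodes a ring finger subunit of PRC1 that blood stem cells need for self-renewal, and it is known for repressing the cell cycle inhibitor locus Cdkn2a. Commd3 encodes a COMM domain subunit of the Commander complex, which returns membrane proteins from endosomes to the cell surface. Runx1 is a transcription factor that definitive blood formation requires.

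Both genes run in the plus direction. Commd3 spans chr2:18672435-18676231 (3797 bp) and Bmi1 spans chr2:18677018-18686629 (9612 bp), so 786 bases separate the end of Commd3 from the start of Bmi1, and the starts lie 4583 bases apart. The minus-strand non-coding gene Gm33355 starts at 18672404, just before Commd3. Beyond Bmi1 lie the predicted protein-coding gene Gm46725 on the minus strand (18687502 to 18690731) and Spag6 (18694011 to 18749746), which encodes a protein of the central apparatus of cilia and flagella. The pseudogenes Gm13355 and Gm13352 and the non-coding gene LOC102636124 lie on the Commd3 side. Spans are those of RefSeq on GRCm38.p6, which shares its chromosome coordinates with mm10. Exons and introns were not annotated in the table used.

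The promoters of Bmi1, Commd3 and Gm46725 are printed because the peaks of the locus lie at or beside them. Each is the RefSeq sequence on GRCm38.p6 from 250 bases before the annotated start to 50 bases after it, 300 bases in the direction of the gene, with the E-box letters CACGTG in capitals. Bmi1 is chr2:18676768-18677067, plus strand, Commd3 is chr2:18672185-18672484, plus strand, and Gm46725 is chr2:18690682-18690981, minus strand.
Bmi1: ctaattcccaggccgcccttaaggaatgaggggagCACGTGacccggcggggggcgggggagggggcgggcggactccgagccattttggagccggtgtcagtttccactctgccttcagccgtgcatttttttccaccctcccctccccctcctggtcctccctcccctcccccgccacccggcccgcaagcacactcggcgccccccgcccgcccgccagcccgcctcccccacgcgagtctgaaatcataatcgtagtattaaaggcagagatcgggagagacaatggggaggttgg
Commd3: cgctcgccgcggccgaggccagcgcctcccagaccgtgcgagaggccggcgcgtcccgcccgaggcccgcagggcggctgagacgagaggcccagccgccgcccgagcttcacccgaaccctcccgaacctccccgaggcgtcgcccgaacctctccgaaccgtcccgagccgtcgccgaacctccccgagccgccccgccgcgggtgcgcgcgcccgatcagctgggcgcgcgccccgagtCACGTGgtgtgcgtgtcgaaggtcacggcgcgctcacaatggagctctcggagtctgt
Gm46725: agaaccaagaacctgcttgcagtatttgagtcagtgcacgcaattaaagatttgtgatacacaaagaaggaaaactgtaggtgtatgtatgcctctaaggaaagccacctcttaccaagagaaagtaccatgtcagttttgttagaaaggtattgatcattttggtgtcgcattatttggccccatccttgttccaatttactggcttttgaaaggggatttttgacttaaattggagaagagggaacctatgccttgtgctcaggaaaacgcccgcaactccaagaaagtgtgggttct

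Both strands were searched for the letters TGTGGT, the core that RUNX proteins are known to prefer, and for CACGTG. The RUNX core was found 0 times in the promoters of Bmi1, Commd3, Gm46725 and Spag6, and 16.8% of 32851 RefSeq promoters of the same length hold it. CACGTG was found 1 time in the Bmi1 promoter, 215 bases before the start, and 1 time in the Commd3 promoter, 8 bases before the start, but not in those of Gm46725 and Spag6. It is held by 7.15% of all promoters, and each match also counts as 1 CG. The Commd3 promoter had 51 CG dinucleotides, more than 99.3% of promoters. That of Bmi1 had 23, more than 78.5%, that of Spag6 had 26, and that of Gm46725 had 4, against a median of 7 over all promoters. A match to a motif is a description of the letters, not a site.

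Peaks had been called in each library separately, and each carries the fold enrichment and q-value that the authors' caller gave it. The lists go down to weak peaks, with p-values up to about 0.05, so q is used below to tell strong from weak. Ezh2 had 7 and 5 peaks in the window in replicates 1 and 2, of 178354 and 159007 in the whole lists. H3K27me3 had 4 and 4, of 220455 and 178423, and Runx1 had 5 and 6, of 64059 and 66153. Of the 31 peaks, 18 overlapped a peak of the other replicate of the same antibody. The 13 others had folds of 1.74 to 4.68. Of the peaks, 16 had a q no higher than 0.01, and 15 of those were present in both replicates. The exception was a Runx1 peak of replicate 2 at 18724581 to 18724790, inside Spag6, with a fold of 4.68.

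**Figure D1:**
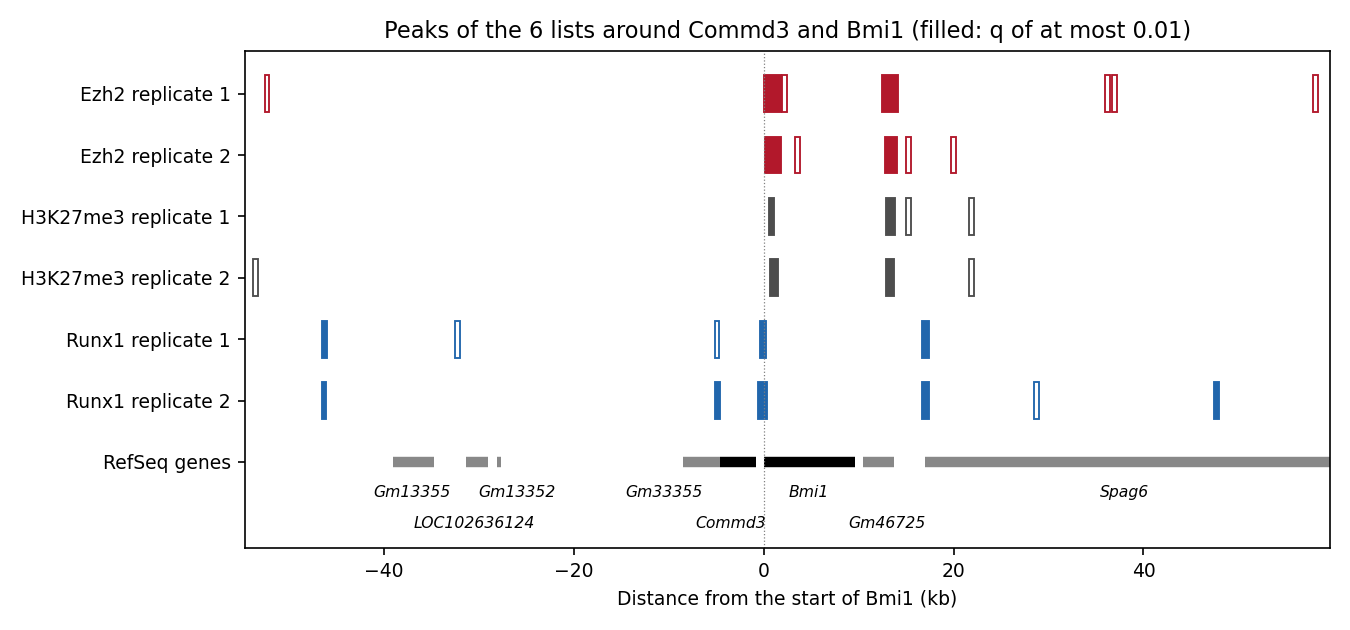
Position of every peak of the 6 lists in the window, against distance from the start of Bmi1 (kb). Each row is a library and each box a peak, filled where its q was at most 0.01, and peaks narrower than 0.5 kb are drawn 0.5 kb wide. Both Ezh2 and both H3K27me3 libraries have filled boxes just after the start of Bmi1 and again at the start of Gm46725, and Runx1 boxes stand at the start of Bmi1 but not of Gm46725.

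The Ezh2 peak stood just inside Bmi1. In replicate 1 it ran from 18677057 to 18678831 (1775 bp), with a summit at 18677862 and a fold enrichment of 77.4. In replicate 2 it ran from 18677212 to 18678890 (1679 bp), with a summit at 18677968 and a fold of 90.4. The summits lay 844 and 950 bases after the annotated start and 106 bases apart, and the peaks shared 1620 bp. The mean fold was 83.9 ± 9.17 (SD, n = 2).

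These folds were the highest of their lists. The next highest Ezh2 peak had a fold of 35.3 in replicate 1, on chromosome 16, and of 23.9 in replicate 2, on chromosome 4. The Bmi1 peak was thus 2.19 and 3.78 times as high as the next, and 31.0 and 37.7 times the median of its list. By q it came 2nd in replicate 1, with a −log10 q of 1325, and 1st in replicate 2, with 1137. It was not among the widest, at place 971 of 178354 by width in replicate 1 and 893 of 159007 in replicate 2. All of it lay downstream of the start, from 39 to 1813 bases after it in replicate 1 and from 194 to 1872 in replicate 2.

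H3K27me3 lay under the Ezh2 summit in both replicates, in a narrower stretch. The broad peak ran from 18677654 to 18678034 (381 bp) in replicate 1, with a fold of 3.33, and from 18677678 to 18678505 (828 bp) in replicate 2, with a fold of 2.39. Both held the Ezh2 summit of the same number and lay wholly inside the Ezh2 peak. The mean fold was 2.86 ± 0.664 (SD, n = 2), and −log10 q was 7.76 in replicate 1 and 2.55 in replicate 2. The peak ranked in the top 0.499% of its list by fold in replicate 1 and in the top 11.9% in replicate 2. The mark was called as broad peaks against another input, so its folds are not on a common scale with those of Ezh2 and Runx1.

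Runx1 sat before the start, with its summit off the Ezh2 peak. Its peak ran from 18676593 to 18677268 (676 bp) in replicate 1, with a fold of 7.96 and a summit 212 bases before the start. In replicate 2 it ran from 18676476 to 18677384 (909 bp), with a fold of 9.75 and a summit 263 bases before the start. The mean was 8.85 ± 1.26 (SD, n = 2), and the summits lay 51 bases apart. In their lists these peaks came within the top 17.0% and 15.8% by fold, where the highest Runx1 peaks reached 335 and 336. The printed Bmi1 promoter lay wholly under Runx1 in both replicates. The summit of replicate 1 fell on its base 39, within the CACGTG letters that begin at base 36, and that of replicate 2 fell 13 bases before its first base.

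Ezh2 and Runx1 overlapped only at their edges here. The peaks shared 212 bp in replicate 1 and 173 bp in replicate 2, and the Ezh2 summit lay 1056 and 1213 bases downstream of the Runx1 summit. Runx1 did not overlap the mark, as 385 and 293 bases separated the end of the Runx1 peak from the start of the H3K27me3 peak. Ezh2 and Runx1 were called against the same input library, which was not analysed here.

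**Figure D2:**
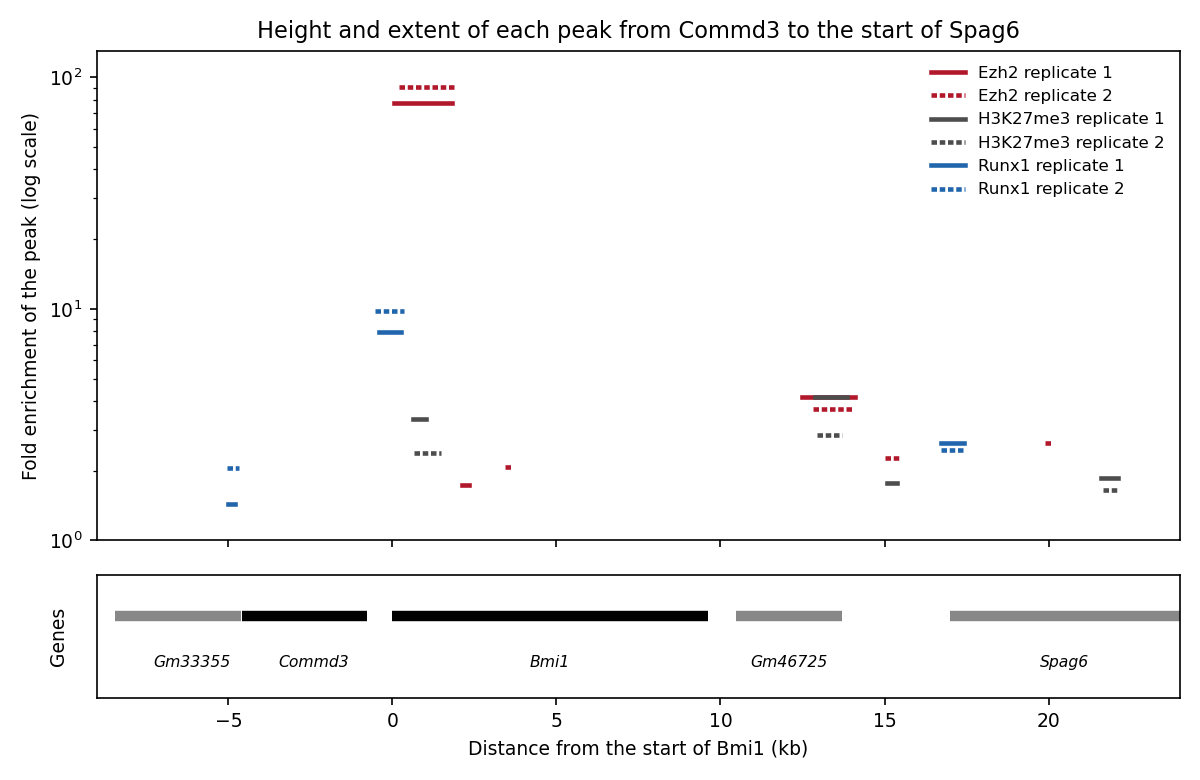
Height and extent of each peak near the genes, with fold enrichment on a log axis against distance from the start of Bmi1 (kb). Each bar is a peak, solid for replicate 1 and broken for replicate 2, and the lower panel shows RefSeq gene spans. The Ezh2 bars at 77.4 and 90.4 stand above every other bar, the Runx1 bars at 7.96 and 9.75 reach across the start, and the H3K27me3 bars at 3.33 and 2.39 lie within the stretch of the Ezh2 bars.

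A further place with both Ezh2 and its mark was the start of Gm46725, 12.5 to 14.1 kb beyond the start of Bmi1. There the Ezh2 peak was wide but low. It ran from 18689489 to 18691129 (1641 bp) with a fold of 4.15 in replicate 1, and from 18689837 to 18691040 (1204 bp) with a fold of 3.68 in replicate 2. The summits were 103 bases apart, and the mean was 3.91 ± 0.334 (SD, n = 2). The H3K27me3 peak ran from 18689889 to 18690868 (980 bp) with a fold of 4.16 in replicate 1, and from 18689948 to 18690717 (770 bp) with a fold of 2.85 in replicate 2. Its mean was 3.51 ± 0.922 (SD, n = 2). This was the highest H3K27me3 peak of the window, within the top 0.0798% of its list in replicate 1 and the top 1.11% in replicate 2.

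Ezh2 and the mark had opposite orders at these places, but the Ezh2 order came with the choice of the locus by its Ezh2 fold. The Ezh2 fold at Bmi1 was 18.6 and 24.6 times that at Gm46725 in replicates 1 and 2, while the H3K27me3 fold at Bmi1 was 0.802 and 0.839 times that at Gm46725. The Ezh2 values of the places did not overlap. Those of the mark did, with 3.33 and 2.39 at Bmi1 beside 4.16 and 2.85 at Gm46725, although each replicate had the lower value at Bmi1. No Runx1 peak touched the Gm46725 site in either replicate.

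**Figure D3:**
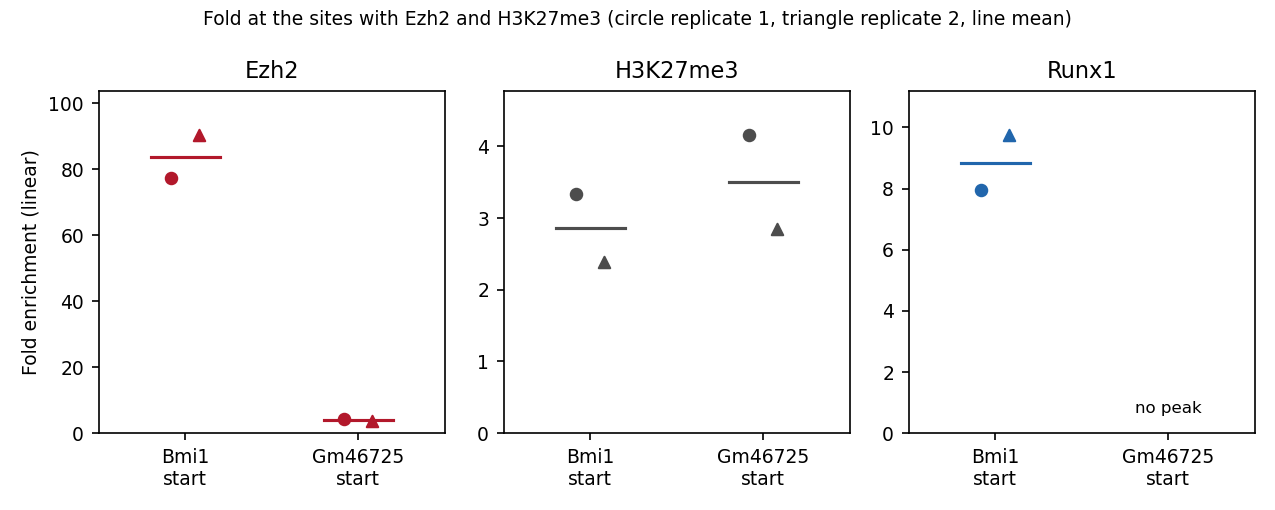
Fold enrichment of the peaks at the starts of Bmi1 and Gm46725 on linear axes from 0, 1 panel per antibody with its own scale. Circles are replicate 1, triangles replicate 2 and lines their mean. Ezh2 averages 83.9 at Bmi1 and 3.91 at Gm46725, H3K27me3 averages 2.86 at Bmi1 and 3.51 at Gm46725, and Runx1 has a peak at Bmi1 alone.

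At the start of Commd3 neither Ezh2 nor H3K27me3 had a peak in any library. Runx1 had a weak one there, just inside the divergent Gm33355, at 18672008 to 18672217 with a fold of 1.44 in replicate 1 and at 18671979 to 18672355 with a fold of 2.05 in replicate 2. The q was 1 in replicate 1 and 0.000125 in replicate 2, so only replicate 2 passed 0.01. The end of Commd3 lay 826 and 981 bases before the Ezh2 peak and 362 and 245 bases before the Runx1 peak of Bmi1. A window of 1 kb either side of a gene end therefore gives Commd3 the Ezh2 and Runx1 peaks of Bmi1.

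By that rule, with a peak of both replicates in the same window, Bmi1 was called for Ezh2, H3K27me3 and Runx1, all at its start and none at its end. Over all 21883 protein-coding genes, 18.4% were called for Ezh2, 30.6% for H3K27me3 and 45.3% for Runx1, so a Runx1 call is common. Commd3 was called for Ezh2 and Runx1 at its end and for Runx1 at its start. Counted at annotated starts alone, which 17491 genes have, 15.2% were called for Ezh2, 26% for H3K27me3 and 46.1% for Runx1. On that count Bmi1 kept its 3 calls and Commd3 had Runx1 only. The H3K27me3 call at Bmi1 was kept at a q threshold of 0.01 in both lists and lost at 1e-05, which replicate 2 did not reach.

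Runx1 had further peaks in both replicates away from Ezh2. About 46 kb before Bmi1, in no annotated gene, it had a fold of 2.98 at 18630550 to 18630940 in replicate 1 and of 6.43 at 18630527 to 18630923 in replicate 2, with summits 150 bases apart. The replicates differed there more than at Bmi1, with a mean of 4.71 ± 2.44 (SD, n = 2). At the first base of the Spag6 span the folds were 2.64 and 2.45 in replicates 1 and 2, averaging 2.55 ± 0.134 (SD, n = 2). The annotated Spag6 start, at 18699022, carried a faint H3K27me3 peak instead, with folds of 1.87 and 1.65 and q-values of 0.202 and 0.982. The 8 remaining Ezh2 peaks of the window had folds of 1.74 to 2.64, and none was present in both replicates.

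Near the far edge of the window, the last Ezh2 peak inside it, of replicate 1 at 18735038 to 18735290, had a fold of 2.37. The first beyond it, of replicate 2 and 571 bases outside, had a fold of 4.08. Ezh2 peaks covered 3.97% and 3.29% of the window in replicates 1 and 2, beside medians of 1.41% and 1.10% over the like windows of all protein-coding genes. H3K27me3 covered 1.91% and 2.00%, beside medians of 9.59% and 4.86%, and Runx1 covered 1.93% and 2.60%, beside medians of 1.58% and 1.69%. The window thus held less of the mark than the median gene's window in both replicates, and more Ezh2 and Runx1. H3K27me3 covered less than here in the windows of 26.8% and 36.8% of genes in replicates 1 and 2. For Ezh2 these shares were 70.4% and 69.7%, and for Runx1 56.7% and 65.7%. The Ezh2 coverage includes the peak by which the locus was chosen.

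Bmi1 was next set beside the other Ezh2 regions, the 65288 stretches where merged peaks came from both replicates. The region at Bmi1 was 1834 bp wide, with a mean Ezh2 fold of 83.9, and the next region, at Cryzl1 and Itsn1, had 29.5. Among the 10 highest regions that of Bmi1 was the narrowest, against a median of 3998 bp, and 3 of the 100 highest were narrower. Its H3K27me3 fold of 2.86 was above that of 95.2% of all marked Ezh2 regions, but it ranked 86 of the 99 marked regions among the 100 highest, whose median was 3.17. The ratio of the Ezh2 to the H3K27me3 fold was 29.3 at Bmi1, the highest of all marked regions. Its median was 4.77 among the 100 highest and 1.12 among all marked regions. The locus was chosen by its Ezh2 fold, so the top place of this ratio is no separate result. Runx1 touched 58 of the 100 highest Ezh2 regions, against 2.75% of all. Those 100 were also wider, with a median width of 3648 bp against 469 bp over all Ezh2 regions. Whether width accounts for the overlap with Runx1, or for the rank of the mark at Bmi1 among the 100, was not tested.

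The replicates also ordered differently at Bmi1. Its Ezh2 fold was higher in replicate 2, with a replicate 2 to replicate 1 ratio of 1.17. All 29 others of the 30 highest regions were higher in replicate 1, with ratios of 0.570 to 0.943. Of the 99 others among the 100 highest, 96 were higher in replicate 1 and 3 in replicate 2, and over all other Ezh2 regions 58.7% were higher in replicate 1.

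**Figure D4:**
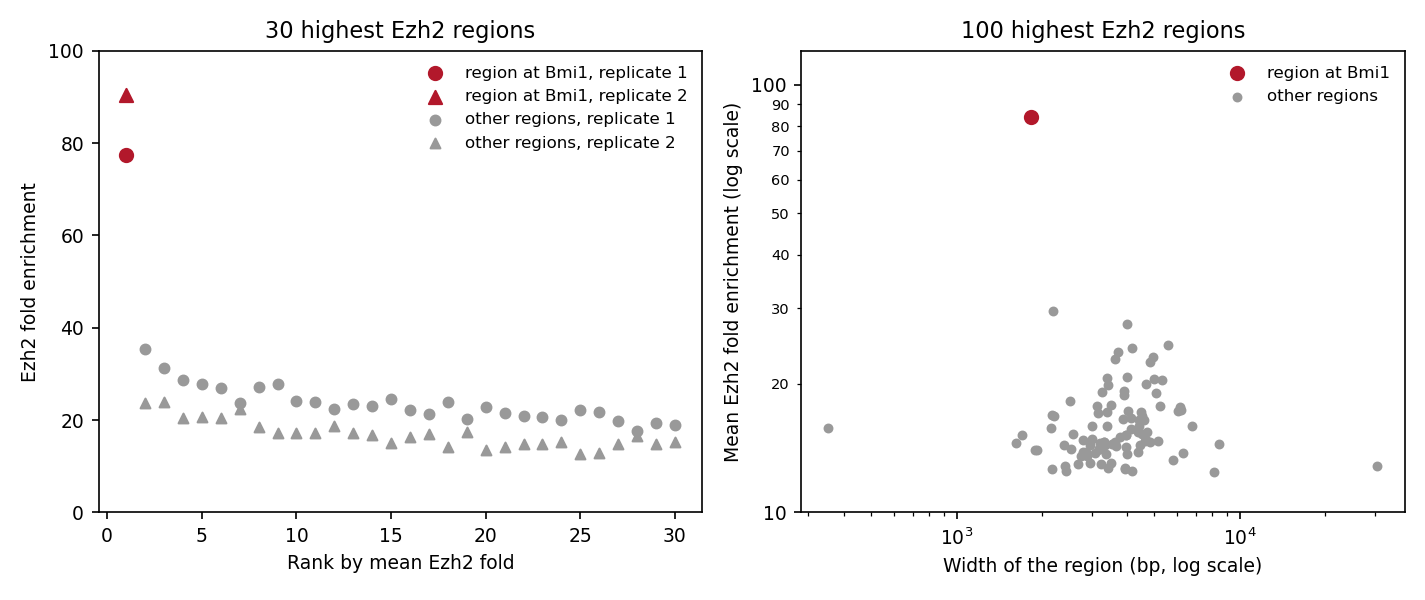
Left, Ezh2 fold enrichment in each replicate (circles replicate 1, triangles replicate 2) for the 30 Ezh2 regions with the highest mean fold, by rank. Right, mean Ezh2 fold against region width (bp), both on log axes, for the 100 highest. The red points of Bmi1 stand at 77.4 and 90.4 on the left, with replicate 2 above replicate 1, and at 1834 bp on the right.

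Among the genes of PRC1, Bmi1 had the highest Ezh2 fold, the value by which the locus was chosen, and a middling Runx1 fold. For Ezh2, 7 of 23 PRC1 genes were called, beside 18.4% of all genes. After Bmi1 at 83.9 came Cbx8 at 3.61 ± 1.82, Pcgf5 at 3.21 ± 0.607, Phc1 at 2.90 ± 0.727, Rybp at 2.59 ± 0.390, Scmh1 at 2.45 ± 0.896 and Cbx2 at 2.16 ± 0.646 (fold, SD, n = 2). Cbx2 and Cbx8 are chromodomain subunits that bind the mark, Pcgf5 is a relative of Bmi1, and Phc1 is a polyhomeotic subunit. H3K27me3 was called at 4 of 23, beside 30.6% of all genes, namely Bmi1 at 2.86, Cbx8 at 2.49 ± 0.515, Rybp at 2.30 ± 0.387 and Phc3 at 2.24 ± 0.141. Of these 4 calls 1, that of Bmi1, was kept at a q threshold of 0.01, where 3.03% of all genes were called. Runx1 was called at 20 of 23, beside 45.3% of all genes, and at 16 by annotated starts alone, beside 46.1%. Bmi1 was the 10th of those 20 by Runx1 fold. Pcgf3, another relative of Bmi1, led with 97.3 ± 17.1, and Rnf2, which encodes the catalytic ring finger partner of Bmi1, had 28.8 ± 3.82.

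Of 11 PRC2 genes, 11 were called for Runx1, beside 45.3% of all genes, and 10 by annotated starts alone, beside 46.1%. The highest were Phf1 at 27.8 ± 0.963, Rbbp7 at 19.8 ± 4.08 and Ezh1, which encodes the alternative catalytic subunit, at 17.6 ± 0.0874. Phf19, an accessory subunit gene, was the exception for the other antibodies, with an Ezh2 fold of 6.87 ± 0.758 and an H3K27me3 fold of 2.74 ± 0.230. It was the 1 of 11 called for Ezh2, beside 18.4% of all genes, and for H3K27me3, beside 30.6%, and the H3K27me3 call was lost at a q threshold of 1e-05.

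Of the 15 Commander genes, 2 were called for Ezh2, beside 18.4% of all genes, and 1 for H3K27me3, beside 30.6%. Runx1 was called at 14, beside 45.3%, and at 10 by annotated starts alone, beside 46.1%. Commd3 owed its Ezh2 call to the peak of Bmi1. Commd4, a COMM domain gene too, had an Ezh2 fold of 3.54 ± 0.125 and an H3K27me3 fold of 2.21 ± 0.179, whose call was lost at a q threshold of 0.01. For Runx1 the highest were Vps26c with 26.8 ± 2.65, Ccdc22 with 9.47 ± 0.968 and Commd3 with 8.85 ± 1.26, the last again at the start of Bmi1. Vps26c and Ccdc22 encode a retriever subunit and a coiled-coil subunit of the complex.

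Of 4 listed targets of PRC1, 4 were called for Ezh2, beside 18.4% of all genes, and 4 for H3K27me3, beside 30.6%. This list was chosen with earlier results of these data known, and Cdkn2a and Cdkn2b lie close together on chromosome 4. The counts are therefore a description only. The Ezh2 calls numbered 4 at a q threshold of 0.01, 2 at 1e-05 and 3 at annotated starts, beside 8.07%, 4.58% and 15.2% of genes. The H3K27me3 calls numbered 1 at 0.01, 0 at 1e-05 and 3 at annotated starts, beside 3.03%, 0.425% and 26% of genes. Most of them thus rest on weak peaks, as do most H3K27me3 calls over all genes. Their Ezh2 folds were all below those of Bmi1, whose locus was chosen because that fold was the highest. Ezh2 averaged 6.52 ± 0.222 at Hoxc13, 5.66 ± 0.983 at Hoxa9, 2.91 ± 0.447 at Cdkn2b and 2.63 ± 0.375 at Cdkn2a. H3K27me3 averaged 2.83 ± 0.466 at Hoxc13, 2.69 ± 0.103 at Hoxa9, 3.30 ± 0.585 at Cdkn2b and 2.34 ± 0.105 at Cdkn2a, so the H3K27me3 fold of 2.86 at Bmi1 fell within their range. Runx1 was called at 1 of 4, beside 45.3% of all genes. This was Cdkn2a, with 2.51 ± 0.125.

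**Figure D5:**
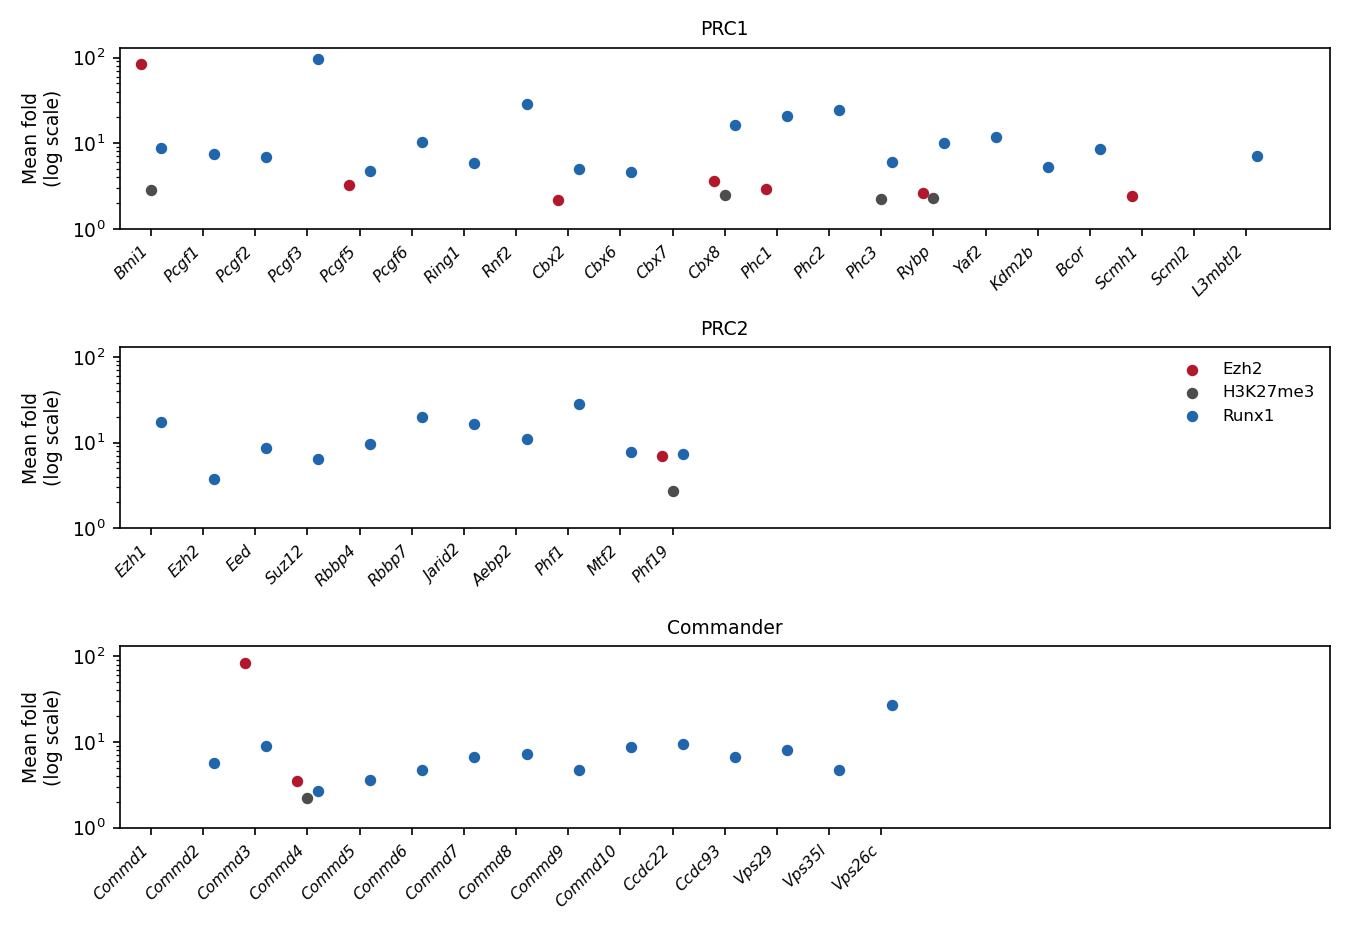
Mean fold enrichment (log axis, n = 2) of the highest called peak at a gene end, for PRC1, PRC2 and Commander genes, with a point only where both replicates had a peak. Red is Ezh2, grey is H3K27me3 and blue is Runx1. The red points at 83.9 for Bmi1 and Commd3 are the same peak, and the other red points lie between 2.16 and 6.87.

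The genes outside the window whose folds over the 6 lists were most like those of Bmi1 were L3mbtl3, Rabgap1l, Pdgfb, Ptpru and Epb41l4b. The measure was the Euclidean distance of log2 highest fold within the gene span and 1 kb on either side. It was 2.96, 3.01, 3.01, 3.07 and 3.11 in that order. The Ezh2 folds by which the locus was chosen are among the 6 values, so this likeness is no separate result. The highest folds of a gene need not lie at the same place. No Runx1 region of both replicates touched the highest Ezh2 regions of L3mbtl3, Rabgap1l and Epb41l4b. Those of Pdgfb and Ptpru had mean Runx1 folds of 2.52 and 3.33. The Ezh2 folds of these 5 genes, 16.9 to 31.2, were below the 77.4 and 90.4 at Bmi1, the values by which the locus was chosen. With ranks within each list in place of folds, Onecut3, Ntf5, Clcf1, Mras and Mlf1 were nearest, and 0 genes were common to both sets of 5.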

How the data were processed

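Each library with an antibody came as 1 deposited peak list, so peaks were called per library. Ezh2 and Runx1 are narrow peaks with summits, H3K27me3 broad peaks without. Per the submitters' processing notes the build was mm10 and the tools included MACS2 2.0.10, Bowtie2 2.2.1, SAMtools and Picard. Roles and parameters were not given there. In the deposited lists fold enrichment is a linear ratio by the authors' caller, p-values and q-values are given as −log10, and the deposited score, 10 times a −log10 p or q, was not used. Without read totals the depth is unknown. The input libraries were not analysed here.

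Positions count from 1. Genes and promoters came from RefSeq on GRCm38.p6, and 17491 of 21883 protein-coding genes had an annotated start. Peaks overlapped when they shared at least 1 bp. Scripts (Python 3.11.15, pandas 2.3.3, numpy 2.4.6) were tested on simulated data. An ± is the SD over 2 replicates. No test was run, since 2 libraries against 2 cannot go below an exact permutation p of 0.333. Genes named were those of the window, list members called for Ezh2, the 3 highest of each list per antibody, and the 5 most like Bmi1. A gene of these lists is not reported here by name or in the plot of the lists. The members and lists were chosen with earlier results of these data known.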

Additional observations from a re-analysis of the deposited data

How the results depend on the processing

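Of 183 alternatives over 37 results, 138 stayed within the spread of the replicates or within 1.5 times the count, and 45 did not. Stricter lists hold fewer peaks and smaller windows fewer bases, which by construction lowers counts. Mean Ezh2 peaks in the window, 6 as deposited, were 2 at a q of at most 0.01, 2 at 1e-05, 3.5 with 10 kb on either side and 2 in the gene spans alone. For H3K27me3, 4 became 2, 1, 2.5 and 1 in the same order. For Runx1, 5.5 became 3 at 1e-05, 3 with 10 kb and 1 in the spans. At 1e-05 the regions of both replicates numbered 0 in place of 3 for H3K27me3 and 2 in place of 4 for Runx1. Ranked by q, the strongest peaks averaged place 1.5 in place of 1 for Ezh2 and 8574.5 in place of 10676 for Runx1. Coverage of the window by Ezh2, 3.63%, was 2.76% at 0.01 and at 1e-05 and 10.4% with 10 kb. That by H3K27me3, 1.96%, was 1.30%, 0.596% and 4.78% in the same order, and that by Runx1, 2.26%, was 1.60% at 1e-05 and 5.32% with 10 kb.

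At annotated starts alone, 1 in place of 2 of Bmi1 and Commd3 was called for Ezh2, and at 1e-05 0 in place of 1 for H3K27me3. The share of all genes called for Ezh2, 18.4%, was 31.4% over whole spans, 8.07% at 0.01 and 4.58% at 1e-05, and that for H3K27me3, 30.6%, was 3.03% at 0.01 and 0.425% at 1e-05. H3K27me3 calls over the PRC1, PRC2 and Commander genes, 6, were 2 at 0.01 and 0 at 1e-05. Ranks in place of folds left 0 of the 5 genes most like Bmi1. No paired analysis was possible because no result came from a test that could take a replicate block. Depth is unknown, so a missing peak does not show that nothing was bound.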

Other observations

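The Commd3 side of the window opened onto a long stretch without Ezh2 peaks. From 18054063 to 18624627 on chromosome 2, 570.6 kb that hold Mllt10, a cofactor gene of the histone methyltransferase Dot1l, and Dnajc1, a co-chaperone gene, Ezh2 had 0 peaks in both replicates. H3K27me3 had 0 and 3 peaks there in replicates 1 and 2, and Runx1 had 22 and 24. The gap between Ezh2 peaks that holds this stretch was 570.7 kb in replicate 1, the 447th longest of 178333, and 623.1 kb in replicate 2, the 433rd longest of 158986, where median gaps were 1.66 and 1.84 kb. In replicate 2 that gap ended at the Bmi1 peak itself. The H3K27me3 gap of replicate 1, 625.9 kb, likewise ended at Bmi1. That of replicate 2 was only 146.1 kb and ended at 18623375, well before Bmi1. These stretches were noticed after the peaks had been seen, and they have no test.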
